A study of Rattus norvegicus with 6 samples.

Results

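miR-190a and miR-190b are a pair of related miRNAs, and their mature arms were examined in small RNA libraries from the lumbar spinal cord of rats with bone cancer pain (BCP) and of sham-operated rats. The 4 rows listed under either name made up the set, of 753 known mature miRNAs in the deposited count table. rno-miR-190a-5p, rno-miR-190a-3p and rno-miR-190b-5p had counts, and rno-miR-190b-3p was listed at 0 in every library. The rows were taken by name. The pair itself was chosen by values of these data already known, namely its abundance, its arms and the comparison of BCP with sham, so these values are given as a description, without p-values.

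The BCP group was 3 libraries from rats that received living Walker 256 cells, a rat mammary carcinoma line, in the marrow cavity of the left tibia. The sham group was 3 libraries from rats given heat-killed cells in the same way. Tissue was taken on day 14, as the injected side of the lumbar enlargement without the meninges. The study calls the 3 libraries of a group biological replicates, and whether each came from 1 rat or from pooled rats is not given in the sources used here. The labels name the strain as Wistar and the study's methods name it as Sprague Dawley, and according to those methods the rats were female. An age was not given in the sources used here.

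A miRNA is cut from a hairpin precursor, and the arm that is loaded into an Argonaute protein recognizes target mRNAs mainly through its seed, bases 2 to 8 from its 5′ end. Arms with one seed can recognize overlapping sets of targets, whereas the remaining bases, the length and the host locus can differ between paralogues. miR-190a is known as a miRNA encoded within the talin 2 gene, whose product links integrins to actin. In neurons it has been studied as a repressor of Neurod1, a neuronal transcription factor, in connection with μ-opioid receptor agonists.

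The mature sequences of the members are shown because they define what the pair has in common. They were taken from RefSeq on the rat build GRCr8, which held 3 of the 4 members, and the seed is in capitals.
miR-190a-5p: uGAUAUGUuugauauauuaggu
miR-190b-5p: uGAUAUGUuugauauuagguu
miR-190b-3p: aACUAAAUgucaaacauucu

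The 5p arms had one seed, GAUAUGU, and were identical over their first 15 bases. The arms of miR-190a and miR-190b were 22 and 21 bases long. Counted from 1 at the 5′ end, and with miR-190a-5p first, the next 3 positions read A16U, U17A and U18G. Removal of 2 bases from miR-190a-5p gave the first 20 bases of miR-190b-5p. The shortest reads that were mapped had 18 bases, so a read from the 5′ end of either arm covered all 3 of these positions. How reads that match more than one miRNA were assigned is not given in the sources used here, and the split of counts between both arms is uncertain to that extent. Among the 688 listed miRNAs with a RefSeq sequence, 0 outside the pair had the same bases 2 to 8, and the other listed miRNAs were not searched.

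The hairpins are shown with the mature arms of the RefSeq table in capitals.
Mir190: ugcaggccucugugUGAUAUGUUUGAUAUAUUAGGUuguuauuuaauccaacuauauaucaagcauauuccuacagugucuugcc
Mir190b: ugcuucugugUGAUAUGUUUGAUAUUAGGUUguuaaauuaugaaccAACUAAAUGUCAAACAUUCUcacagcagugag

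The Mir190 hairpin, the precursor of miR-190a, lies at chr8:76732179-76732263 on the minus strand of GRCr8. All 85 of its bases were inside the span of Tln2, the talin 2 gene, which is on the same strand. The Mir190b hairpin lies at chr2:177812461-177812538 on the plus strand and, unlike the Mir190 hairpin, was in no talin gene. It shared 5 of its 78 bases with the span of Tpm3, a tropomyosin gene on the same strand, and Cfap141 was the next gene on its other side. Tpm1, another tropomyosin gene, was the nearest gene outside Tln2 on the side of lower coordinates from Mir190. Exons and introns were not resolved in the table used. The authors mapped reads to Rnor 6.0, and no coordinates were carried over between builds.

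Total counts lay between 13464349 and 23770677. With 3 counts taken as the least that can be told from 0, this limit was 0.126 to 0.223 CPM in the libraries, where CPM is the usual depth-scaled count. Levels are given below in CPM scaled by edgeR's TMM method. Marker miRNAs of neurons (miR-124-3p, miR-9a-5p and miR-128-3p) summed to between 121046 and 136379 CPM in the 6 libraries. The sums of the neuronal, oligodendrocyte, skeletal muscle, liver, sensory ganglion and choroid plexus markers overlapped between the groups. Both erythroid markers, miR-451-5p and miR-144-5p, were listed at 0 in every library. A listed 0 may not bound the level, as described below for miR-190b-3p, so nothing is read from it about blood in the tissue.

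miR-190b-5p was the most abundant member and was higher in the BCP group. The BCP libraries 1, 2 and 3 held 349, 318 and 402 counts of it, and the sham libraries 1, 2 and 3 held 107, 80 and 152. On the scaled level these were 14.8, 23.4 and 25.4 CPM in the BCP libraries and 7.71, 5.26 and 10.2 CPM in the sham libraries. Every BCP library lay above every sham library, and the lowest BCP value was that of library 1, the most deeply sequenced one. The 95% Poisson interval of the level in BCP library 1, 13.3 to 16.4 CPM, did not reach that of sham library 3, 8.61 to 11.9 CPM. Such intervals cover counting error only, because copies of one molecule made by PCR cannot be told apart here.

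The mean level of miR-190b-5p was 21.2 ± 5.64 CPM (SD, n = 3) in the BCP group and 7.71 ± 2.45 CPM (SD, n = 3) in the sham group, a ratio of 2.75. In the edgeR quasi-likelihood fit over all 459 miRNAs that passed the filter on low counts, its log2 fold change was 1.45 (standard error 0.28). To be called, a miRNA had to pass an adjusted p of 0.05 and change by more than 0.8 on the log2 scale in either direction. The study used these cutoffs too, with a test within edgeR that it does not name, and reported miRNAs that differed in both directions. In the fit described here, miR-190b-5p was called. By the same rule 16 of the 459 tested miRNAs, or 3.49%, were called higher in the BCP group and 0 were called lower. At an unadjusted p below 0.05, 11 were lower, and DESeq2 and limma-voom called 0 lower as well. Other settings called a few lower, namely 3 with edgeR's likelihood ratio test, 2 with scaling by total counts, and 1 each with RLE size factors, with 10 counts or more in each library and without sham library 3. By log2 fold change it ranked 13 among the tested miRNAs. The groups also did not overlap, with the BCP group higher, for 61 of the 459, or 13.3%. Nothing is read from either share, because this comparison was among the values that chose the pair.

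The call of miR-190b-5p was not stable to the loss of a library, whereas its direction was the same in each such fit. It was kept in 2 of the 6 fits that each left out one library, without BCP library 1 and without sham library 3. Without BCP library 2 it was lost at a log2 fold change of 1.38, and without BCP library 3 at 1.29. Without sham library 1 it was lost at 1.43, and without sham library 2 at 1.23. It was also lost where each library had to hold 10 counts or more, at a log2 fold change of 1.45 with 437 miRNAs tested.

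miR-190a-5p, the arm that carries the same seed from the other hairpin, was low in all libraries and was not called. The BCP libraries 1, 2 and 3 held 21, 33 and 47 counts of it, and the sham libraries 1, 2 and 3 held 24, 27 and 42. The levels were 0.891, 2.43 and 2.97 CPM in the BCP libraries and 1.73, 1.78 and 2.81 CPM in the sham libraries. The groups overlapped, and the lowest and the highest value both belonged to BCP libraries. The 95% Poisson intervals of BCP library 1, 0.551 to 1.36 CPM, and BCP library 3, 2.18 to 3.95 CPM, did not overlap.

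The mean level of miR-190a-5p was 2.10 ± 1.08 CPM (SD, n = 3) in the BCP group and 2.10 ± 0.61 CPM (SD, n = 3) in the sham group. The log2 fold change was -0.05 (standard error 0.44), and its sign depended on the libraries included. Without BCP library 1 it was 0.34, without sham library 3 it was 0.18, and without BCP library 3 it was -0.42.

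Within the BCP group the order of the libraries was the same for both 5p arms, and within the sham group it was not. Each was lowest in library 1 and highest in library 3 among the BCP libraries, and each was highest in library 3 among the sham libraries. The lowest sham value was that of library 1 for miR-190a-5p and that of library 2 for miR-190b-5p. The order in the BCP group is not particular to the pair. miR-140-5p and miR-137-3p also rose from library 1 to library 3 there, whereas miR-92a-3p fell. How many miRNAs had each order was not counted. In the plot of levels by library the groups were apart for miR-190b-5p and overlapped for miR-190a-5p.

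**Figure D1:**
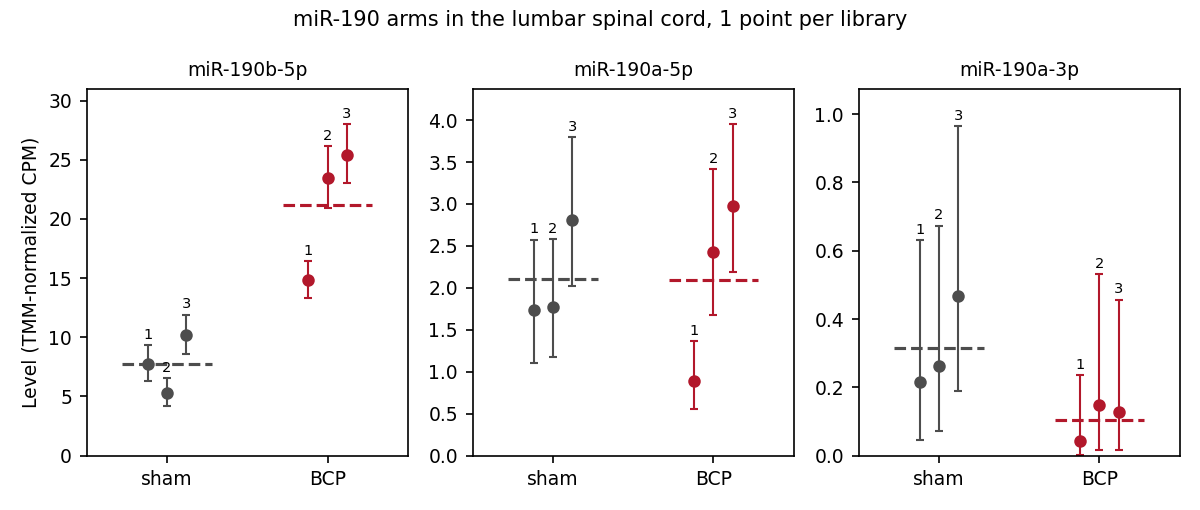
Levels of miR-190b-5p, miR-190a-5p and miR-190a-3p in TMM-normalized CPM (vertical axes from 0, with a different range in each panel) in sham and BCP libraries. Points are single libraries with their replicate number, bars are 95% Poisson intervals for counting error and dashed lines are group means. The BCP libraries lie between 14.8 and 25.4 CPM for miR-190b-5p, above all sham libraries, and the groups overlap for miR-190a-5p.

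The 3p arm of miR-190a was near the limit of detection. It had 1, 2 and 2 counts in BCP libraries 1, 2 and 3, and 3, 4 and 7 counts in sham libraries 1, 2 and 3, and did not pass the filter on low counts. The levels were 0.0424, 0.147 and 0.126 CPM in the BCP libraries and 0.216, 0.263 and 0.468 CPM in the sham libraries. The groups did not overlap, but all BCP libraries and sham library 1 had no more than 3 counts. The groups did not overlap, with the BCP group lower, for 29 of the 603 miRNAs with a count (4.81%) and for 24 of the 459 tested (5.23%), and nothing is read from this for miR-190a-3p, since its levels were among the values that chose the pair. Over each group the 5 and 14 counts gave a ratio of 0.297, BCP to sham, with a 95% exact counting interval from 0.0837 to 0.872. This interval leaves out the spread between libraries. In the edgeR fit without a filter, which includes that spread, the log2 fold change was -1.66 (standard error 0.72) over 603 miRNAs, and miR-190a-3p was not called.

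miR-190b-3p, the other arm of the Mir190b hairpin, was listed at 0 in all 6 libraries, against 1408 counts of miR-190b-5p. A count of 0 allows a level of up to 0.126 to 0.223 CPM, depending on the library, and a share of up to 0.213% of the counts of its 5p arm. In RefSeq this arm is 20 bases long, while the study's methods give a length of 21 to 22 nucleotides for known miRNAs. The limits on level and share cover counting error only and hold only if reads of this arm were counted. The table also lists miR-98-5p, miR-186-5p, miR-301a-3p and miR-142-5p, which are known from many tissues or from blood cells, at 0 in every library, so a listed 0 may not bound the level. Of the 38 listed miRNAs with a RefSeq length of 20, 17 were listed at 0 in every library, against 44 of the 315 with a length of 22. The counts were 28 of 152 at a length of 21, 21 of 113 at 23 and 2 of 24 at 24. The share at 0 was thus not raised at the lengths of 23 and 24, which are also outside 21 to 22. Whether the length played a part in the 0 of miR-190b-3p was not tested.

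The 5p arm was thus the main product of miR-190a in every library. It took 95.5%, 94.3% and 95.9% of the counts of both arms in BCP libraries 1, 2 and 3, and 88.9%, 87.1% and 85.7% in sham libraries 1, 2 and 3. The shares did not overlap, with means of 95.2% ± 0.841 (SD, n = 3) in the BCP group and 87.2% ± 1.59 (SD, n = 3) in the sham group. The exact Clopper-Pearson 95% intervals were wide, from 77.2% to 99.9% in BCP library 1 and from 72.8% to 94.1% in sham library 3, and overlapped between these libraries. With counts summed over each group, the shares were 95.3% (89.3% to 98.5%) and 86.9% (79.0% to 92.7%), and these intervals overlapped as well. The difference between the groups rests on 5 against 14 counts of miR-190a-3p.

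Among 214 precursors with both arms listed and at least 100 counts over both, the 5p arm held more than 50% of the counts in 108 and more than 90% in 68. miR-190a, at 91.1% over all libraries, and miR-190b, at 100%, were both among the latter. Only the 5p arm was counted for 11 precursors, miR-190b among them. The share of the 5p arm did not overlap between the groups, with the BCP group higher, in 15 of the 214 (7.01%), miR-190a among them, and with the BCP group lower in 10.

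The balance between the paralogues was described within each library, where the library's scaling cancels out. miR-190b-5p had 16.6, 9.64 and 8.55 counts for each count of miR-190a-5p in BCP libraries 1, 2 and 3. In sham libraries 1, 2 and 3 it had 4.46, 2.96 and 3.62. miR-190b-5p had more counts than miR-190a-5p in all 6 libraries, and the smallest excess among the BCP libraries, 8.55, was above the largest among the sham libraries, 4.46.

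miR-190a-5p made up 5.68%, 9.40% and 10.5% of the counts of both 5p arms in BCP libraries 1, 2 and 3, and 18.3%, 25.2% and 21.6% in sham libraries 1, 2 and 3. The exact Clopper-Pearson 95% intervals nearest to each other were 7.79% to 13.7% in BCP library 3 and 12.1% to 26.0% in sham library 1. These overlapped, although the values did not. The mean share was 8.52% ± 2.52 (SD, n = 3) in the BCP group and 21.7% ± 3.46 (SD, n = 3) in the sham group.

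**Figure D2:**
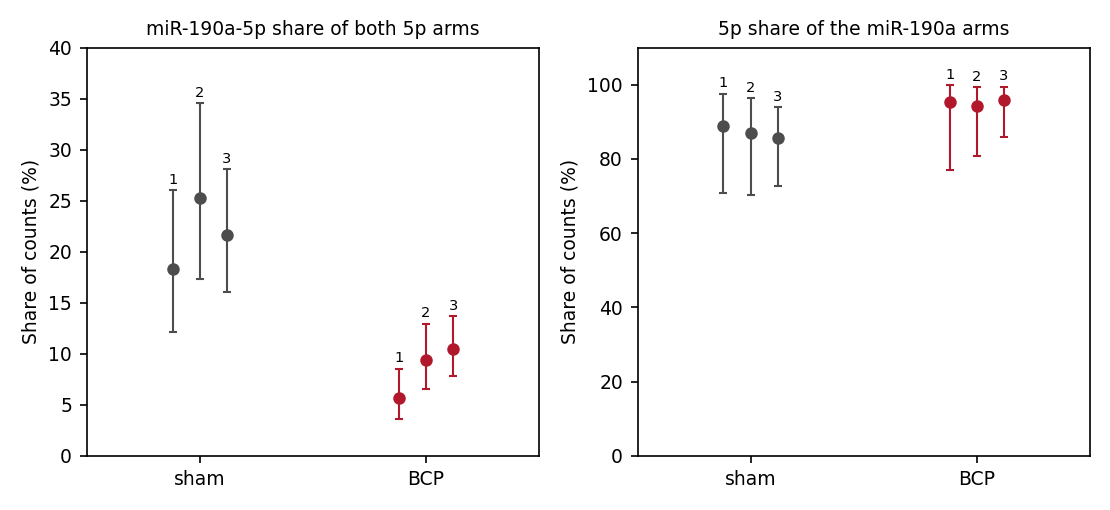
Share of counts in percent (vertical axes from 0) of miR-190a-5p among the 5p arms of both paralogues, left, and of the 5p arm among both arms of miR-190a, right, in sham and BCP libraries. Points are single libraries with their replicate number and bars are exact 95% binomial intervals. The left shares lie between 5.68% and 10.5% in BCP libraries and between 18.3% and 25.2% in sham libraries.

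The ratio of paralogue a to paralogue b was then set beside that of other families. On the log2 scale the ratio of miR-190a-5p to miR-190b-5p was -3.47 ± 0.51 (SD, n = 3) in the BCP group and -1.86 ± 0.29 (SD, n = 3) in the sham group, a difference of -1.61. There were 38 such pairs of arms with a mean count of at least 10 for both members, and b was the more abundant member in the sham group in 19 of them. The ratio did not overlap between the groups in 13 of the 38 pairs, or 34.2%, and was lower in the BCP group in 3 and higher in 10. The median absolute difference of the other 37 pairs was 0.19, and 3 of them had a larger one than miR-190. These were miR-130a-3p to miR-130b-3p (-3.32), miR-146a-5p to miR-146b-5p (1.74) and miR-146a-3p to miR-146b-3p (2.60). Several pairs are arms of the same precursors, so the pairs are not independent.

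**Figure D3:**
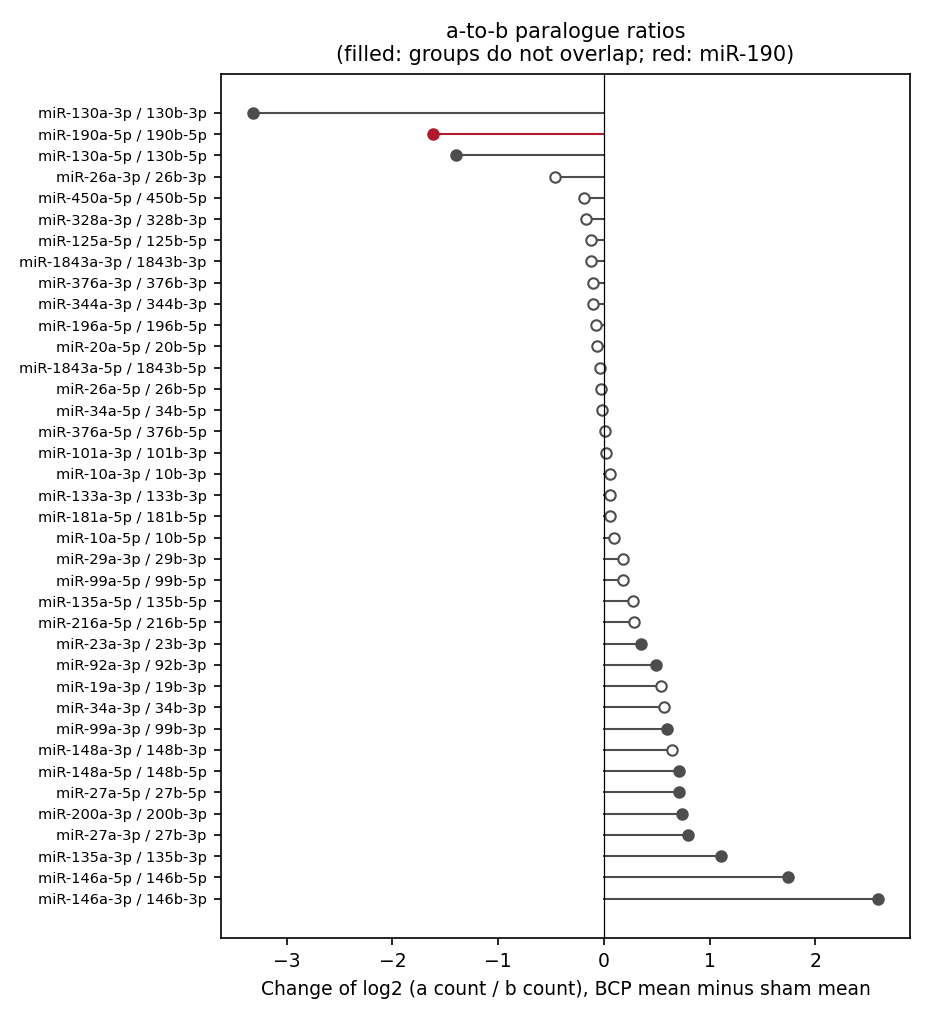
Difference between the group means, BCP minus sham, of the log2 ratio of the a member to the b member (horizontal axis) for 38 pairs of paralogous arms, one per row. Filled points mark pairs whose ratios do not overlap between the groups of 3 libraries and the red line is miR-190, at -1.61, where most other pairs lie near 0.

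Summed over all arms, the levels of the family were 15.7, 26.0 and 28.5 CPM in BCP libraries 1, 2 and 3, and 9.66, 7.30 and 13.4 CPM in sham libraries 1, 2 and 3. The mean was 23.4 ± 6.77 CPM (SD, n = 3) in the BCP group and 10.1 ± 3.10 CPM (SD, n = 3) in the sham group. miR-190b-5p alone held 91.0% of the family's counts in the BCP group and 76.0% in the sham group, so the sum followed this arm.

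By mean level over the 6 libraries, the members ranked 306 (miR-190b-5p), 408 (miR-190a-5p) and 509 (miR-190a-3p) among the 603 miRNAs with at least 1 count. The neighbours of miR-190b-5p, with a mean of 14.5 CPM, were miR-324-3p at 14.6 CPM and miR-26b-3p at 14.2 CPM, and the levels of both lay within the range of miR-190b-5p, 5.26 to 25.4 CPM. Those of miR-190a-5p were miR-153-3p at 2.11 CPM, a neuronal miRNA, and miR-653-3p at 2.10 CPM, with ranges that overlapped its own. miR-190a-3p, with a mean of 0.211 CPM, lay between miR-3558-3p at 0.212 CPM and miR-1949 at 0.206 CPM. The neighbours were picked by mean level, so it follows from the choice that none differed from the member beside it by more than the spread over libraries. The plot of all tested miRNAs shows both 5p arms at their levels.

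**Figure D4:**
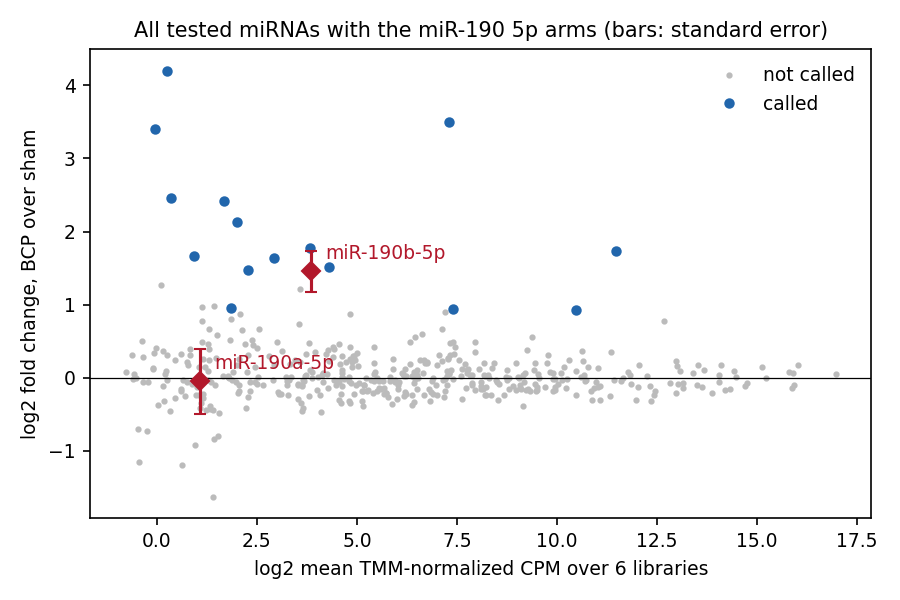
Log2 fold change, BCP over sham, against the log2 of the mean TMM-normalized CPM over 6 libraries for the 459 tested miRNAs, with 16 called miRNAs in blue or red and the miR-190 5p arms as red diamonds with standard errors. miR-190b-5p lies at 1.45 among the called miRNAs, and miR-190a-5p lies at -0.05.

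The miRNAs nearest in pattern were sought by the root mean square difference of centred log2 CPM over the 6 libraries, among tested miRNAs with a mean count of at least 100. For miR-190b-5p these were miR-203a-3p at 0.24, miR-20a-5p at 0.30 and miR-363-3p at 0.30, of 343 compared. miR-203a-3p, a miRNA known from epithelia, had 16.6 ± 6.02 CPM in the BCP group and 7.08 ± 1.59 CPM in the sham group (SD, n = 3 each). miR-20a-5p belongs to the miR-17-92 cluster and had 190 ± 40.5 CPM in the BCP group and 102 ± 25.2 CPM in the sham group (SD, n = 3 each). miR-363-3p, from the related miR-106a-363 cluster, had 29.0 ± 7.0 CPM and 10.2 ± 0.47 CPM in the same order (SD, n = 3 each). Of these, miR-363-3p was called and the others were not, beside 16 called of all 459 tested. The 3 were picked for their likeness to miR-190b-5p over the same 6 libraries. Their higher levels in the BCP group follow from that choice, and nothing is read from them or from the call.

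For miR-190a-5p the nearest were miR-135b-5p at 0.34, miR-140-5p at 0.35 and miR-380-3p at 0.35, of 344 compared. Their log2 fold changes were 0.03 (standard error 0.30), 0.09 (0.26) and 0.03 (0.27), and 0 of the 3 were called. They were likewise picked by their pattern, so nothing is read from this. The same measure between miR-190a-5p and miR-190b-5p was 0.88, so neither arm was among the nearest of the other.

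One myeloid marker moved in the same direction as miR-190b-5p. Of the 2 on the list, miR-223-3p had 6.51 ± 1.25 CPM in the BCP group and 1.5 ± 0.83 CPM in the sham group (SD, n = 3 each) and was called, while miR-142-5p was listed at 0 in every library. The level of miR-223-3p, which is all of the summed marker level, ranged from 5.57 to 7.93 CPM in the BCP libraries and from 0.658 to 2.31 CPM in the sham libraries, and its part in the level of miR-190b-5p was not tested. In whole tissue, a larger number of cells of a type and more RNA per cell cannot be told apart.

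miR-190a was also set beside other miRNAs known to lie in protein-coding host genes. Of 36 on the list, 35 were listed under the name used, 3 were at 0 in every library, 30 passed the filter, and 0 were called in either direction by edgeR's quasi-likelihood test, by its likelihood ratio test, by DESeq2 or by limma-voom. At an unadjusted p below 0.05, 2 of the 30 (6.67%) were higher and 0 lower, beside 49 (10.7%) higher and 11 lower of all 459 tested. The marker lists above also held 4 of the 36. The 30 tested had a median log2 fold change of 0.07, beside -0.0034 over all 459, and single values ranged from -0.31 to 0.49. The most abundant were miR-128-3p (R3hdm1 and Arpp21) with 62169 ± 6727 CPM, miR-26a-5p (Ctdspl and Ctdsp2) with 33955 ± 3249 CPM, miR-126a-3p (Egfl7) with 16708 ± 2747 CPM and miR-218a-5p (Slit2 and Slit3) with 10569 ± 2055 CPM in the sham group (SD, n = 3 each). miR-190a-5p, at 2.10 CPM in that group, was among the low ones of this kind, close to miR-153-3p (Ptprn2) with 2.14 ± 0.71 CPM (SD, n = 3).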

How the data were processed

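The 3 BCP and 3 sham small RNA libraries were grouped by the sample titles. The authors deposited raw read counts per mature miRNA, without normalization. According to the study's methods, reads were filtered with the FASTX Toolkit, clean reads were mapped to Rnor 6.0 with Bowtie (Bowtie2 2.2.3 in the submitters' processing notes), and known miRNAs were taken by length and miRBase annotation. Total counts are given with the results.

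The model used edgeR 4.0.16 in R 4.3.3, with filterByExpr at a minimum count of 10, TMM factors and quasi-likelihood tests, and p-values were adjusted over the 459 tested miRNAs by the Benjamini-Hochberg method. Standard errors were computed from the F statistic. Intervals were computed in SciPy 1.17.1. The fit was tested on simulated data. Alternatives used other filters, normalizations, DESeq2 1.42.0, limma 3.58.1 (voom), edgeR's likelihood ratio test, a replicate block and the loss of each library. The members, the miRNA lists and the rules for named miRNAs (members, shared seeds, 3 nearest patterns, neighbours in level, the 4 most abundant of a list) were chosen with earlier results of these data known. miR-153-3p in the host gene list, and the larger paralogue ratios, were named after their values were seen. No pair of libraries within a group agreed within sampling noise, and the smallest chi-square per degree of freedom was 50.8.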

Additional observations from a re-analysis of the deposited data

How the results depend on the processing

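The log2 fold change of miR-190b-5p was positive in all 14 alternative fits. With each library left out in turn it ranged from 1.23 to 1.67, and it was no longer called in 4 of these 6 fits, which have fewer samples. With at least 10 counts in every library it was 1.45 and not called, and the cause was not tested. In the other 7 fits with all libraries it was called. miR-190a-5p was called in none of its 14 fits, and its log2 fold change ranged from -0.42 to 0.34 with each library left out, with the sign turned to 0.34 without BCP library 1 and 0.18 without sham library 3. The number of called miRNAs, 16, was 25 with the likelihood ratio test, where the cause was not tested, and ranged from 8 to 20 with each library left out. Libraries with the same number are from differently treated animals. The correlations of their deviations from the group means were 0.109, -0.452 and 0.711. Between libraries with different numbers they ranged from -0.733 (BCP library 1 with sham library 3) to 0.746 (BCP library 1 with sham library 2). Some libraries thus shared variation across the groups, but not by number, so the numbers were not taken to pair the libraries. With the replicate number as a block, miR-190b-5p had a log2 fold change of 1.46, miR-190a-5p had -0.10, and 18 miRNAs were called. The ratio of the 5p arms, the share of the 5p arm of miR-190a and the ratio of miR-190a-3p kept their direction, and moved by less than the spread between libraries or the counting interval, in all alternatives run. miR-190a-3p did not pass the filters, so DESeq2, the likelihood ratio test, limma-voom, the block and the filter of 10 counts in every library gave no value for it. Depth limits both arms of miR-190a, with at most 47 counts in a library.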
